A study of Mus musculus with 4 samples.

Results

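The 44 genes described here encode proteins that carry a cell from the end of DNA replication through chromosome segregation and cytokinesis. They were taken as a written list of G2 and M phase genes, and all 44 were found among the 23906 gene symbols measured. The RNA came from LSK-SLAM cells, which are lineage-negative, Sca1-positive, cKit-positive, CD150-positive and CD48-negative and are enriched for haematopoietic stem cells (HSCs). The cells came from BRE-GFP transgenic mice, in which BMP receptor signalling through Smad1/5 switches on GFP. The 4 conditions were GFP+ (BMP-activated) and GFP- (non-BMP-activated) cells of the fetal liver (FL) at embryonic day 14 and of adult bone marrow (BM), with 1 sample each. The transgene was kept heterozygous in matings on a C57BL/6 background. The number of embryos or mice behind a sample is not given in the sources used here. GFP marks signalling at the time of sorting rather than its history.

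Entry into mitosis is driven by Cdk1 bound to cyclins A and B. The Cdc25 phosphatases switch Cdk1 on, and Polo-like and Aurora kinases then build the spindle. The spindle checkpoint holds Cdc20 and the anaphase-promoting complex (APC/C) in check until every kinetochore is attached, after which the APC/C marks cyclins for destruction. Transcripts of these proteins accumulate late in the cell cycle and are low in resting cells. Adult HSCs are known to be mostly quiescent, whereas HSCs of the FL divide actively.

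The late cell-cycle timing of these genes is written in part into their promoters. Among the elements known there are the CCAAT box bound by NF-Y and the cell cycle homology region, whose letters TTTGAA, or its variants TTTAAA and TTCGAA, are bound by the MuvB complexes. RefSeq promoters (build GRCm38.p6) were matched by symbol for 36 of the 44 genes, and the 250 bases before the start were searched on both strands. The variants read the same on either strand, and matches were counted once per gene. CCAAT was found for 28 of the 36 (77.8%), against 39.1% of the 16719 measured genes with a promoter. TTTGAA or a variant of it was found for 20 of 36 (55.6%), against 26.7%. Both kinds occurred together in 18 of 36 (50.0%), against 11.2%. Of 21 DNA replication genes with a promoter, 66.7% had CCAAT, 28.6% had TTTGAA or a variant and 23.8% had both. For 91 other mitotic genes with a promoter the shares were 53.8%, 40.7% and 24.2%. A CCAAT share above that of all genes was thus not particular to the list. A letter match is a description and not a binding site.

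The 110 bases directly before the start are shown for 7 genes on which the values below turn, with matches on either strand in capitals. As deposited, Cdk1 was the steadiest gene of the list, and Plk1, Ccnf, Ttk and Bub1 were past 2-fold between the fractions of both tissues. Cdc25b was the gene listed at 0, and Mki67 had the largest GFP+/GFP- ratio in the BM. The windows lie at chr10:69352913-69353022 (minus strand), chr7:122159325-122159434 (plus strand), chr17:24251410-24251519 (minus strand), chr9:83834579-83834688 (plus strand), chr2:127831860-127831969 (minus strand), chr2:131186838-131186947 (plus strand) and chr7:135716380-135716489 (minus strand).
Cdk1: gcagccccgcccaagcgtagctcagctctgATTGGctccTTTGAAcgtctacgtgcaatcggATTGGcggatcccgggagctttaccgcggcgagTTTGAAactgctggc
Plk1: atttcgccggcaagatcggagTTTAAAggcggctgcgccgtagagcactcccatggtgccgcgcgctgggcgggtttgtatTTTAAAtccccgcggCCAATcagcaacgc
Ccnf: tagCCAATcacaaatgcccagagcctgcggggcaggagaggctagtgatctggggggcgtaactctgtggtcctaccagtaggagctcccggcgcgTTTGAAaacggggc
Ttk: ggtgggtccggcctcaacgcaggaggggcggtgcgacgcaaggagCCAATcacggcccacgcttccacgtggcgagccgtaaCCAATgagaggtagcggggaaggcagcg
Bub1: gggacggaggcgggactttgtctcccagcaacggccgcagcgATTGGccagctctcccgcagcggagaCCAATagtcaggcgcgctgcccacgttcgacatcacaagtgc
Cdc25b: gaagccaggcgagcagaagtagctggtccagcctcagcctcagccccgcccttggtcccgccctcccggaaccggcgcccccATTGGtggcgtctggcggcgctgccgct
Mki67: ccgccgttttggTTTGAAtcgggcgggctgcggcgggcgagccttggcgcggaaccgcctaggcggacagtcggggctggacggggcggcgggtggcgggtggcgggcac
The window of Cdk1 held CCAAT in reverse beside TTTGAA, and that of Plk1 held TTTAAA and CCAAT. Ccnf had CCAAT and TTTGAA, and Ttk and Bub1 had CCAAT boxes with none of the other letters. Mki67 had TTTGAA within these 110 bases, and its CCAAT box lay farther upstream within the 250 searched. Cdc25b held a reverse CCAAT box.

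The deposited values are FPKM, a fragment count scaled for transcript length and library size, so that levels can be compared between genes. As a check of the labels, the 7 fetal-stage genes summed to FPKM of 535 and 177 in the FL GFP+ and GFP- samples and of 6.99 and 6.81 in those of the BM. Reads from GFP itself have no row, so the fractions were not checked in this way. The stem cell list (10 genes) had a summed FPKM of 860.3 (GFP+) and 823 (GFP-) in the liver against 404 and 606 in the marrow, with Procr listed at 0 in BM GFP+ cells. Neutrophil, erythroid and B-cell marker sums were highest in the BM GFP+ sample. The neutrophil list (8 genes) summed to 60711.5 there and 16245 in BM GFP- cells, the erythroid list (8 genes) to 20434 and 2846, and the B-cell list (7 genes) to 3089 and 860.4, with no member of these lists at 0 in either sample. Cd48, against which the sort selects, was at 51.4 (GFP+) and 17.4 (GFP-) in the liver against 267 (GFP+) and 126 (GFP-) in the marrow. In FL GFP+ cells the hepatocyte list (7 genes) summed to 452, against 68.4 in FL GFP- cells. The genes listed above 0 numbered 12372 (FL GFP+), 15556 (FL GFP-), 13489 (BM GFP+) and 17345 (BM GFP-). Both GFP+ samples thus had fewer of them than both GFP- samples, which bears on low values in GFP+ cells. The FPKM total of BM GFP+ was 1.85 times that of FL GFP-, the lowest, so every comparison was repeated with equal totals. The part of these differences in the results below was not tested.

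Transcripts of mitosis were present in all 4 samples. Of the 44 genes, 43 had an FPKM of at least 1 in every sample, and between 38 and 42 had at least 10. Their median FPKM was 44.3 (GFP+) and 44.4 (GFP-) in the liver against 36.7 and 31.3 in the marrow, which in the same order placed it above 71.9%, 79.2%, 69.1% and 69.4% of the genes with at least 1 FPKM. Summed over the genes, FPKM was 2532 (GFP+) and 2355 (GFP-) in the liver against 2851 and 2023 in the marrow. The share of all FPKM taken by the genes was 0.392% and 0.435% in those FL samples and 0.285% and 0.277% in those of the BM. BM GFP- cells thus had the lowest sum, and the share was lower in both BM samples than in both FL samples. BM GFP+ cells had the highest sum but also the largest FPKM total, by which the share is divided. In bulk RNA, fewer dividing cells, less mitotic RNA per cell and more of other RNA cannot be told apart.

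**Figure D1:**
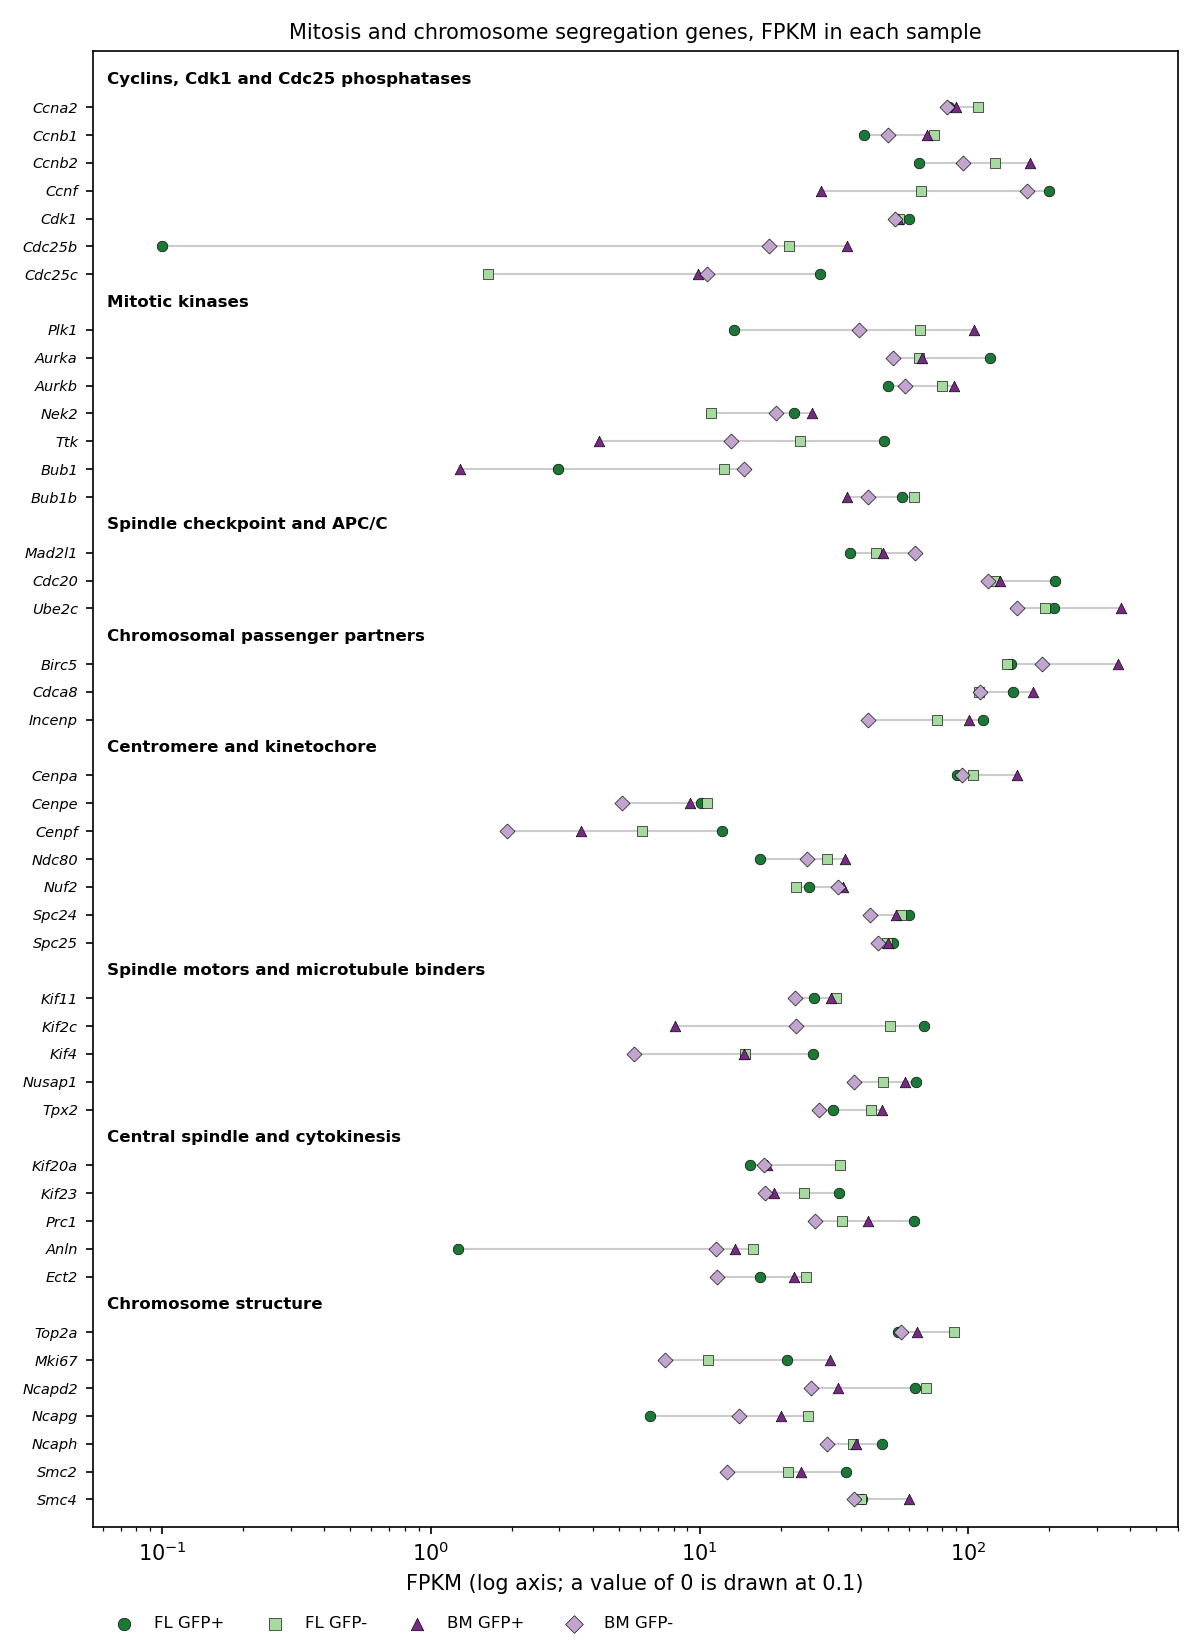
FPKM (log axis) of the 44 genes in the 4 samples, grouped by role, with 1 point per sample and a grey line from the lowest to the highest; there are no replicates and so no error bars. Cdk1 and Spc25 sit within 1.13-fold, whereas Cdc25b, drawn at 0.1, is listed at 0 in FL GFP+ cells.

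Ranges over the 4 samples, taken on FPKM as deposited only, were moderate for most genes. Among the 43 with at least 1 FPKM everywhere, the highest sample exceeded the lowest by a median of 2.14-fold, and by under 2-fold for 19 of them (44.2%). Over the 8311 genes of the whole table that met the same minimum, the median was 2.50-fold and 32.0% were under 2-fold. As deposited, BM GFP- cells had the lowest value for 22 of the 44 genes, against 14.9% of all genes with at least 1 FPKM in a sample, and the highest for 2, against 15.9%. FL GFP+ cells had the highest value for 17 and the lowest for 12 of the 44, against 29.2% and 38.7% of all genes. Across the 44 genes, Pearson's r of log2(FPKM + 1) was 0.87 between FL GFP- and BM GFP- cells, 0.82 between the BM samples, 0.80 between FL GFP- and BM GFP+, and 0.58 to 0.69 for the 3 pairs that include FL GFP+. These r values are across genes, which share libraries and normalization and are not replicates.

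Among the drivers of mitotic entry, Cdk1, the kinase itself, was nearly constant as deposited. Its FPKM was 60.1 (GFP+) and 55.2 (GFP-) in the liver against 54.6 (GFP+) and 53.4 (GFP-) in the marrow. Ccna2 (cyclin A2), which acts from S phase into early mitosis, had 84.4 (GFP+) and 108 (GFP-) in the liver against 90.02 (GFP+) and 83.5 (GFP-) in the marrow. As deposited, Cdk1 spanned 1.13-fold and Ccna2 1.30-fold over the samples. With equal FPKM totals the log2(FPKM + 1) ratio of FL over BM for Cdk1 was 0.75 (GFP+) and 0.47 (GFP-). For Ccna2 it was 0.53 (GFP+) and 0.80 (GFP-). The B-type cyclins, which activate Cdk1 at mitotic entry, were less even. Ccnb1 had an FPKM of 40.8 (GFP+) and 74.2 (GFP-) in the liver against 70.1 (GFP+) and 50.4 (GFP-) in the marrow. For Ccnb2 the values were 65.3 (GFP+) and 126 (GFP-) in the liver against 169 (GFP+) and 95.9 (GFP-) in the marrow. Both B cyclins were lowest in FL GFP+ cells and lower there than in FL GFP- cells, by 1.82-fold and 1.93-fold, and both were higher in GFP+ cells of the BM, by 1.39-fold and 1.76-fold.

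Ccnf (cyclin F) does not bind Cdk1 but is the substrate receptor of a ubiquitin ligase active in G2. Its FPKM was 199 (GFP+) and 66.9 (GFP-) in the liver against 28.3 (GFP+) and 165 (GFP-) in the marrow. It was high in FL GFP+ and BM GFP- cells and low in the remaining samples, 2.98-fold higher in GFP+ than GFP- liver cells and 5.83-fold lower in GFP+ cells of the BM. The Cdc25 phosphatases remove the inhibitory phosphates from Cdk1, and their genes had unlike values. Cdc25b had 0 (GFP+) and 21.5 (GFP-) in the liver against 35.3 (GFP+) and 18.04 (GFP-) in the marrow. Cdc25c had 28.1 (GFP+) and 1.63 (GFP-) in the liver against 9.84 (GFP+) and 10.7 (GFP-) in the marrow. In the FL the GFP+ sample thus had Cdc25c while Cdc25b was listed at 0, and the GFP- sample had mostly Cdc25b. A value of 0 has no error in these files. Of the 3900 other genes within 2-fold of Cdc25b in FL GFP- cells, 104 (2.67%) were also listed at 0 in FL GFP+ cells. Of genes with at least 10 FPKM in the 3 other samples, 55 of 5126 were at 0 in FL GFP+ cells, against 9 of 4905 (FL GFP-), 23 of 5086 (BM GFP+) and 3 of 4903 (BM GFP-) by the same count for the other samples.

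Among the mitotic kinases, Ttk, Bub1 and Plk1 had the widest ranges over the samples. Plk1 (Polo-like kinase 1), needed for centrosome maturation and mitotic entry, had an FPKM of 13.4 (GFP+) and 65.8 (GFP-) in the liver against 105 (GFP+) and 39.1 (GFP-) in the marrow. It was 4.91-fold lower in GFP+ than GFP- cells of the FL and 2.69-fold higher in those of the BM. Ttk, the checkpoint kinase Mps1, went the other way, with 48.7 (GFP+) and 23.7 (GFP-) in the liver against 4.23 (GFP+) and 13.1 (GFP-) in the marrow. That is 2.06-fold higher in GFP+ than GFP- liver cells and 3.08-fold lower in GFP+ cells of the BM. Bub1, a kinase that recruits checkpoint proteins and shugoshin to centromeres, had 2.97 (GFP+) and 12.4 (GFP-) in the liver against 1.28 (GFP+) and 14.6 (GFP-) in the marrow. It was low in both GFP+ samples, by 4.16-fold in the FL and 11.4-fold in the BM, and was the only gene of the 44 past 2-fold in the same direction in both tissues. Its relative Bub1b (BubR1), a component of the mitotic checkpoint complex, was flat by comparison, at 56.4 (GFP+) and 62.7 (GFP-) in the liver against 35.3 (GFP+) and 42.5 (GFP-) in the marrow. Within each sample Bub1b exceeded Bub1 in FPKM, a per-length level, by 19.01-fold (FL) and 27.6-fold (BM) in the GFP+ samples but by 5.07-fold and 2.91-fold in the GFP- samples. This ratio, picked after the values were seen, does not depend on how samples were scaled.

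Aurka (Aurora A), the spindle-pole kinase, had the highest mean FPKM among the kinases, at 120.2 (GFP+) and 65.6 (GFP-) in the liver against 67.1 (GFP+) and 52.5 (GFP-) in the marrow. Tpx2, the spindle protein that binds and activates Aurora A, had 31.4 (GFP+) and 43.4 (GFP-) in the liver against 47.7 (GFP+) and 27.7 (GFP-) in the marrow. Aurka exceeded Tpx2 by 3.83-fold in FL GFP+ cells and by 1.41-fold to 1.90-fold in the other samples. Nek2, a centrosome kinase, had 22.4 (GFP+) and 11.02 (GFP-) in the liver against 26.3 (GFP+) and 19.3 (GFP-) in the marrow. At 2.04-fold in the FL it lay just past the 2-fold threshold.

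Of the checkpoint and APC/C genes, Cdc20 and Ube2c had high FPKM within the list and Mad2l1 lay below the list's median in FL GFP+ cells and above it in the other samples. None of the 3 genes (0) passed 2-fold between the FL fractions, where 17.9% of all genes were past it on the higher side and 26.8% on the lower. Cdc20, the activator that the checkpoint restrains, had an FPKM of 210.3 (GFP+) and 124 (GFP-) in the liver against 131 (GFP+) and 118 (GFP-) in the marrow. Mad2l1 (Mad2), which binds and inhibits Cdc20, had 36.3 (GFP+) and 45.4 (GFP-) in the liver against 47.9 (GFP+) and 63.3 (GFP-) in the marrow. Ube2c, the ubiquitin-conjugating enzyme that works with the APC/C, had 208 (GFP+) and 193 (GFP-) in the liver against 370.2 (GFP+) and 152 (GFP-) in the marrow. Ube2c was 2.44-fold higher in GFP+ cells of the BM, the highest FPKM of any of the 44 genes, and Mad2l1 was the gene of this group lower in GFP+ cells of both tissues, by 1.25-fold and 1.32-fold. Per length, Cdc20 exceeded Mad2l1 in every sample, by 1.86-fold to 5.80-fold.

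The chromosomal passenger complex, which corrects faulty attachments and directs cytokinesis, joins Aurora B to Incenp, survivin and borealin. Aurkb had an FPKM of 50.2 (GFP+) and 79.7 (GFP-) in the liver against 88.1 (GFP+) and 58.1 (GFP-) in the marrow. Birc5 (survivin) had 144 (GFP+) and 139 (GFP-) in the liver against 361 (GFP+) and 188 (GFP-) in the marrow. Cdca8 (borealin) had 146 (GFP+) and 109.6 (GFP-) in the liver against 174 (GFP+) and 110.4 (GFP-) in the marrow. The partners of the kinase were all higher in GFP+ cells of both tissues as deposited, though Birc5 in the FL was on the lower side under both rescalings, and Aurkb was lower in GFP+ cells of the FL. Incenp, the scaffold, had 113 (GFP+) and 76.6 (GFP-) in the liver against 101 (GFP+) and 42.3 (GFP-) in the marrow, or 1.48-fold and 2.38-fold more in GFP+ than in GFP- cells. Birc5 was the highest subunit in every sample except FL GFP+, and stood 4.10-fold above Aurkb in BM GFP+ cells. Summed over the 4 genes, the complex had FPKM of 454 and 405 in FL GFP+ and GFP- cells and of 724 and 399 in those of the BM.

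Of the 7 centromere and kinetochore genes, none (0) passed 2-fold between the fractions of either tissue. Of all genes, 17.9% were higher and 26.8% lower past that threshold in the FL. In the BM the shares were 21.1% and 19.6%. Cenpa, the histone H3 variant that marks centromeres, had the highest level, with an FPKM of 90.8 (GFP+) and 104 (GFP-) in the liver against 152 (GFP+) and 94.8 (GFP-) in the marrow. Cenpf, a large kinetochore protein of G2 and M, had the lowest, with 12.2 (GFP+) and 6.10 (GFP-) in the liver against 3.61 (GFP+) and 1.92 (GFP-) in the marrow. Its order followed tissue and then fraction, with both FL samples above both BM samples. Cenpe, the kinesin that moves chromosomes to the spindle equator, had 10.1 (GFP+) and 10.6 (GFP-) in the liver against 9.24 (GFP+) and 5.14 (GFP-) in the marrow.

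The 4 subunits of the Ndc80 complex, the main microtubule contact of the kinetochore, kept an order by arm. Spc25 had 52.2 (GFP+) and 49.7 (GFP-) in the liver against 50.05 (GFP+) and 46.1 (GFP-) in the marrow and spanned 1.13-fold. Spc24 had 60.02 (GFP+) and 56.3 (GFP-) in the liver against 53.6 (GFP+) and 42.95 (GFP-) in the marrow. These genes encode the centromere-facing pair. Ndc80 had 16.8 (GFP+) and 29.7 (GFP-) in the liver against 34.7 (GFP+) and 25.1 (GFP-) in the marrow. Nuf2 had 25.4 (GFP+) and 22.7 (GFP-) in the liver against 34.2 (GFP+) and 32.8 (GFP-) in the marrow. The microtubule-binding pair thus had lower FPKM than either Spc gene in every sample, with Spc24 and Spc25 at 1.44-fold to 3.57-fold of Ndc80 and 1.31-fold to 2.47-fold of Nuf2.

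**Figure D2:**
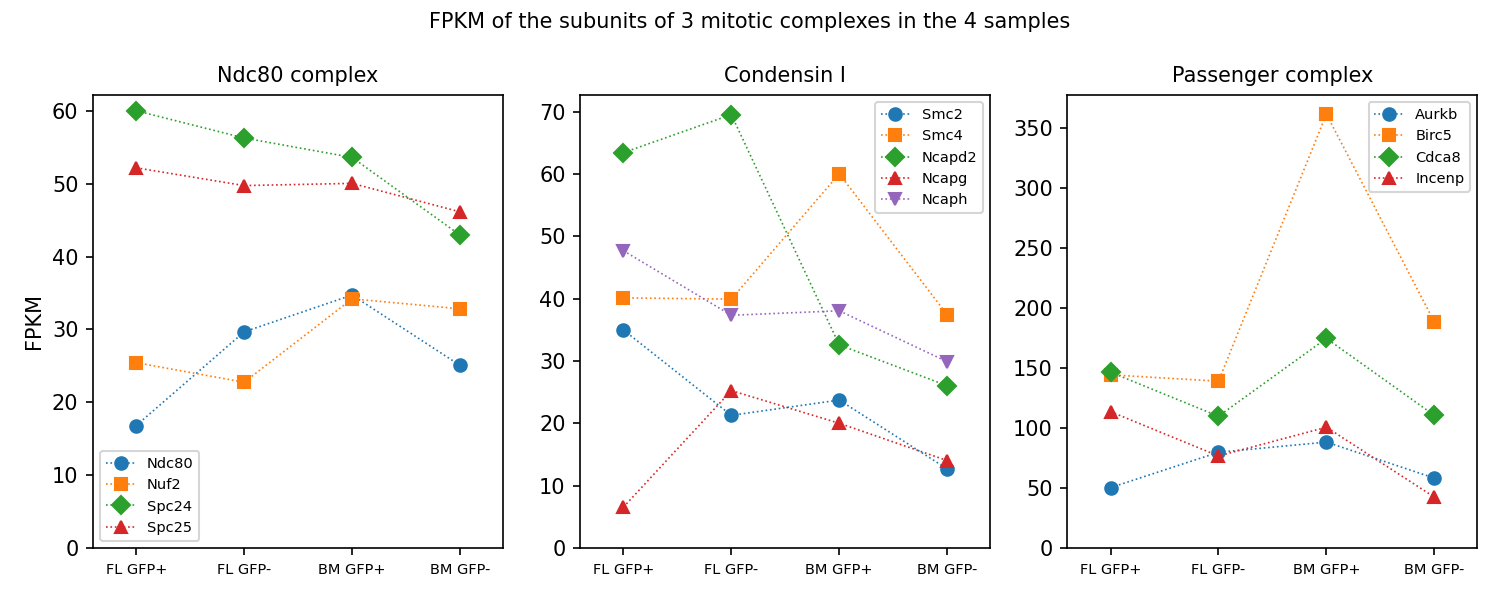
FPKM (linear axis from 0) of the subunits of the Ndc80, condensin I and chromosomal passenger complexes in the 4 samples, 1 point per gene and sample, joined by dotted lines to follow a gene. Spc24 and Spc25 lie above Ndc80 and Nuf2 in every sample, Ncapg is at 6.54 in FL GFP+ cells, and Birc5 is at 361 in BM GFP+ cells.

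Among spindle motors and microtubule binders, Kif2c and Kif4 had the widest ranges. Kif2c (MCAK), which depolymerizes microtubules at centromeres, had an FPKM of 68.5 (GFP+) and 51.1 (GFP-) in the liver against 8.08 (GFP+) and 22.8 (GFP-) in the marrow. Both FL values exceeded both BM values. Kif4, a chromokinesin, had 26.4 (GFP+) and 14.8 (GFP-) in the liver against 14.7 (GFP+) and 5.69 (GFP-) in the marrow. It was higher in GFP+ cells by 1.79-fold in the FL and 2.57-fold in the BM. Nusap1, which bundles spindle microtubules, had 63.8 (GFP+) and 48.02 (GFP-) in the liver against 58.1 (GFP+) and 37.4 (GFP-) in the marrow. Kif11 (Eg5), which pushes the spindle poles apart, ranged from 22.5 in BM GFP- to 32.1 in FL GFP- cells.

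The genes of the central spindle and cytokinesis were all 5 higher in GFP+ than in GFP- cells of the BM as deposited (all genes 55.1%), but 2 of 5 were with equal FPKM totals (all genes 36.3%). None of them (0) passed 2-fold there, where 21.1% of all genes were higher and 19.6% lower past that threshold. Prc1, which crosslinks the midzone microtubules, had an FPKM of 62.6 (GFP+) and 33.7 (GFP-) in the liver against 42.4 (GFP+) and 26.8 (GFP-) in the marrow. Kif20a, the kinesin that brings passengers to the midzone, had 15.3 (GFP+) and 33.2 (GFP-) in the liver against 17.8 (GFP+) and 17.3 (GFP-) in the marrow. Anln (anillin), the scaffold of the contractile ring, had 1.26 (GFP+) and 15.8 (GFP-) in the liver against 13.6 (GFP+) and 11.5 (GFP-) in the marrow. Anln was 12.6-fold lower in FL GFP+ than in FL GFP- cells and between 11.5 and 15.8 in the other samples. Ect2, which activates RhoA at the division plane, had 16.8 (GFP+) and 24.9 (GFP-) in the liver against 22.4 (GFP+) and 11.6 (GFP-) in the marrow. Kif23, part of centralspindlin, ranged from 17.5 in BM GFP- to 32.9 in FL GFP+ cells.

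Mki67 (Ki-67), the coat of mitotic chromosomes and a common proliferation marker, was higher in GFP+ cells of both tissues. Its FPKM was 21.04 (GFP+) and 10.8 (GFP-) in the liver against 30.6 (GFP+) and 7.45 (GFP-) in the marrow. It was 1.96-fold higher in the FL, just short of the threshold, and 4.11-fold higher in the BM. Top2a, which untangles sister chromatids, did not share that pattern, with 54.7 (GFP+) and 88.6 (GFP-) in the liver against 64.6 (GFP+) and 56.3 (GFP-) in the marrow. Mki67 was at 0.385 and 0.474 of the FPKM of Top2a in the GFP+ samples of FL and BM and at 0.121 and 0.132 in the GFP- samples, again a ratio within samples that was chosen after its values were seen.

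Condensin I, which folds mitotic chromosomes, differed between its subunits. Ncapd2 had an FPKM of 63.4 (GFP+) and 69.5 (GFP-) in the liver against 32.6 (GFP+) and 26.01 (GFP-) in the marrow, with both FL samples above both BM samples. Ncapg had 6.54 (GFP+) and 25.2 (GFP-) in the liver against 19.997 (GFP+) and 14.01 (GFP-) in the marrow. Ncapg was 3.86-fold lower in FL GFP+ than in FL GFP- cells, so that the subunits spanned 9.70-fold in FL GFP+ cells and 2.95-fold to 3.27-fold elsewhere. Smc2 had 34.97 (GFP+) and 21.3 (GFP-) in the liver against 23.7 (GFP+) and 12.7 (GFP-) in the marrow. Smc4 and Ncaph each spanned 1.60-fold over the 4 samples.

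The GFP contrast asks how BMP-activated and non-BMP-activated cells differ. In the FL, 24 of the 44 genes were higher and 20 lower in GFP+ cells, and the median log2(FPKM + 1) ratio was 0.06, against 0.05 over the 12134 genes with at least 1 FPKM in either sample. The pseudocount of 1 makes this scale understate changes at low FPKM. Past 2-fold, 4 genes were higher in GFP+ cells (Ccnf, Cdc25c, Nek2 and Ttk), where 17.9% of all genes were, and 6 were lower (Cdc25b, Plk1, Bub1, Kif20a, Anln and Ncapg), where 26.8% of all genes were. These counts are 9.09% and 13.6% of the mitotic genes. With equal FPKM totals 17 of the 44 were higher (all genes 40.9%), and the medians were -0.19 for the list and -0.21 for all genes. The largest log2 ratio was 3.47 for Cdc25c, and the lowest of the genes above 0 in both samples was -2.90 for Anln. As deposited, the genes were split nearly evenly between directions, and a smaller share of them than of all genes passed the threshold. At an FPKM of at least 20 in either sample, a minimum added after the data were seen, 4 of 40 were higher and 4 lower, against 15.5% and 9.30% of all genes, so the share on the lower side was then close to the background. The hepatocyte marker sum differed between these samples, as given above, and its part was not tested. With 1 sample per condition there is no replicate spread to judge these ratios by.

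In the BM, 37 of the 44 genes (84.1%) were higher in GFP+ cells, against 55.1% of the 12385 genes compared, and the median log2 ratio was 0.44, against 0.12. Past 2-fold, 5 were higher (Plk1, Ube2c, Incenp, Kif4 and Mki67; background 21.1%) and 4 were lower (Ccnf, Ttk, Bub1 and Kif2c; background 19.6%), or 11.4% and 9.09% of the list. The shift was thus broad and small. As deposited, all 7 centromere and kinetochore genes and all 7 genes of chromosome structure were on the higher side, against 4 of 7 in either group with equal FPKM totals. The 3 passenger partners were on that side under each scaling. For the whole list, equal totals left 22 of the 44 higher with a median of 0.0039, while the median of all genes went to -0.31 and 36.3% of them were higher. With the upper quartiles made equal, 34 were higher (all genes 51.1%) and the median was 0.35, against 0.02 for all genes. The BM GFP+ sample is also the one with the highest neutrophil, erythroid and B-cell marker sums given above, and their part was not tested.

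**Figure D3:**
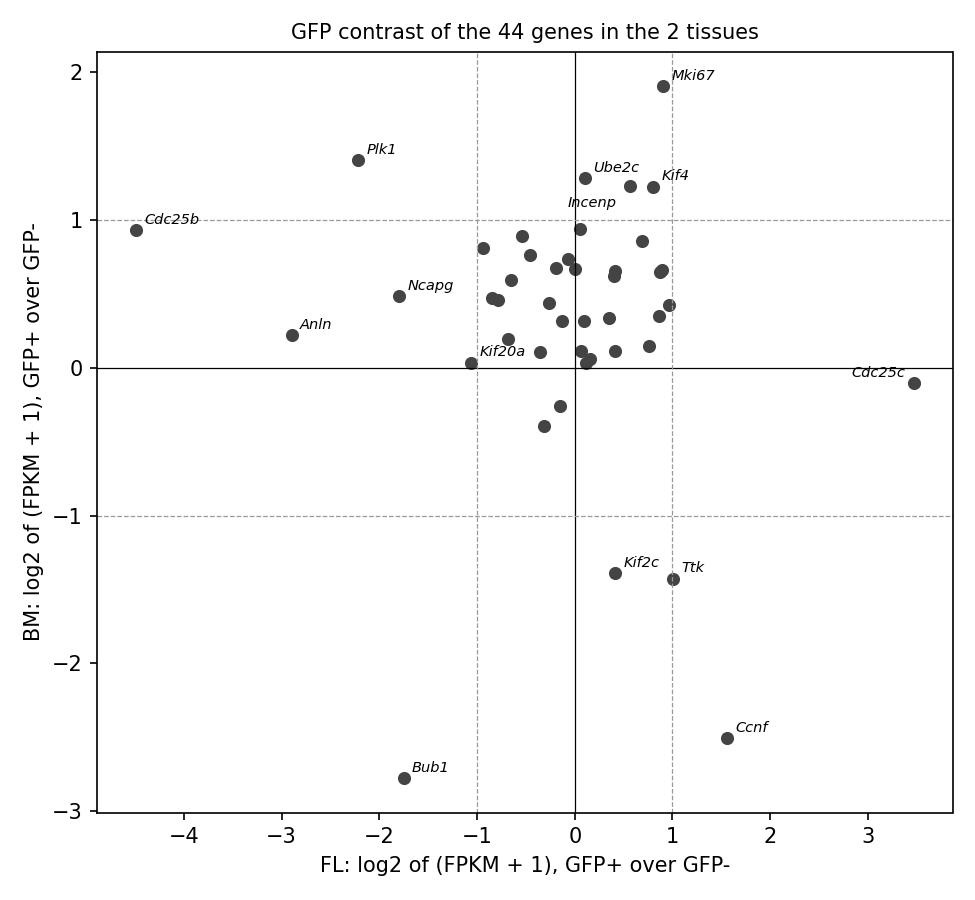
Log2 of (FPKM + 1) in GFP+ over GFP- cells in the FL (x axis) and the BM (y axis) for the 44 genes, 1 point each, with dashed lines at a log2 ratio of 1 and -1. Cdc25b, listed at 0 in FL GFP+ cells, sits on the x axis where the pseudocount of 1 places it. Most points lie above 0 on the BM axis and spread to both sides on the FL axis, and Bub1 (-1.75 and -2.77), Plk1 (-2.21 and 1.41) and Ccnf (1.56 and -2.50) stand apart.

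Few of the 44 genes were past the 2-fold threshold in both tissues. At the low shares found over all genes, such counts do not set the list apart. None of the 44 genes (0) was higher in GFP+ cells of both tissues, where 3.45% of 10910 genes were, and 1 (Bub1) was lower in both, where 6.48% were. For Ccnf and Ttk the GFP+ cells were the higher ones in the FL and the lower ones in the BM (background 3.75%), and Plk1 was the reverse (background 5.79%). Counting any difference, 20 genes were higher in GFP+ cells of both tissues, 3 were lower in both, 17 were lower in the FL and higher in the BM, and 4 were the opposite. Over all genes the shares were 29.0%, 22.1%, 24.4% and 24.6% in the same order. With equal totals the counts became 8, 13, 14 and 9, against 13.9%, 38.1%, 19.7% and 28.3% of all genes. A limma fit of log2(FPKM + 1) with tissue as covariate, in which the 2 tissues stand in for replicates and 1 residual degree of freedom is left, called none of the 44 genes (0) for GFP, where it called 0.111% of the 11707 genes tested. At an unadjusted p under 0.05 it had 2 of the 44, against 6.25% of all genes. By limma these were Bub1 (log2 difference -2.26, SE 0.91, adjusted p = 0.78) and Incenp (log2 difference 0.89, SE 0.38, adjusted p = 0.78).

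Between tissues, the GFP- fractions differed broadly. Of the 44 genes, 36 (81.8%) were higher in FL GFP- than in BM GFP- cells, against 48.6% of the 12703 genes compared, with a median log2 ratio of 0.38 against -0.04. Past 2-fold, 6 were higher in the FL (Cenpe, Cenpf, Kif2c, Kif4, Ect2 and Ncapd2; background 19.3%) and 2 were lower (Ccnf and Cdc25c; background 18.6%), or 13.6% and 4.55%. On the log2(FPKM + 1) scale Ncapd2 had the largest ratio, 1.38, and Cdc25c the lowest, -2.15, whereas by FPKM as deposited Cenpf (3.18-fold) lay above Ncapd2 (2.67-fold). The shift was again made of small differences, and every gene of the spindle motor, cytokinesis and chromosome structure groups was on the FL side under each scaling. The list stayed on that side under both rescalings. With equal totals 38 genes were higher (all genes 66.1%) and the median was 0.81 (all genes 0.37). With equal upper quartiles 37 were higher (all genes 55.4%) and the median was 0.55 (all genes 0.12). Neutrophil and erythroid marker sums were 181 and 909.9 in FL GFP- against 16245 and 2846 in BM GFP- cells, and their part was not tested.

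In the GFP+ fractions the genes split nearly evenly. As deposited, 21 of the 44 genes were higher in the FL (47.7%, all genes 46.2%) and the median log2 ratio was -0.15, close to that of all genes at -0.15. Past 2-fold, 6 were higher in the FL (Ccnf, Cdc25c, Ttk, Bub1, Cenpf and Kif2c; background 25.1%) and 7 were lower (Ccnb2, Cdc25b, Plk1, Birc5, Ndc80, Anln and Ncapg; background 33.6%), or 13.6% and 15.9%. With equal totals 33 were higher in the FL (all genes 61.0%) and the median became 0.46, beside 0.45 for all genes. Whether the tissue difference itself differed between the fractions was not tested. With BM GFP- in place of BM GFP+ cells, a comparison added after the data were seen, 11 genes were past 2-fold higher in FL GFP+ cells and 5 lower, against 22.4% and 29.8% of all genes. The median was 0.25, against -0.06 for all genes.

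Limma called none of the 44 genes (0) for tissue either, where it called 2.46% of all genes. At an unadjusted p under 0.05 there were 4 of 44, against 17.2% of all genes. Kif2c (log2 difference of FL over BM 2.04, SE 0.59, adjusted p = 0.13), Ttk (2.03, SE 0.76, adjusted p = 0.22) and Ncapd2 (1.16, SE 0.43, adjusted p = 0.21) were on the higher side in the FL, and Birc5 (-0.88, SE 0.34, adjusted p = 0.23) was on the higher side in the BM.

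**Figure D4:**
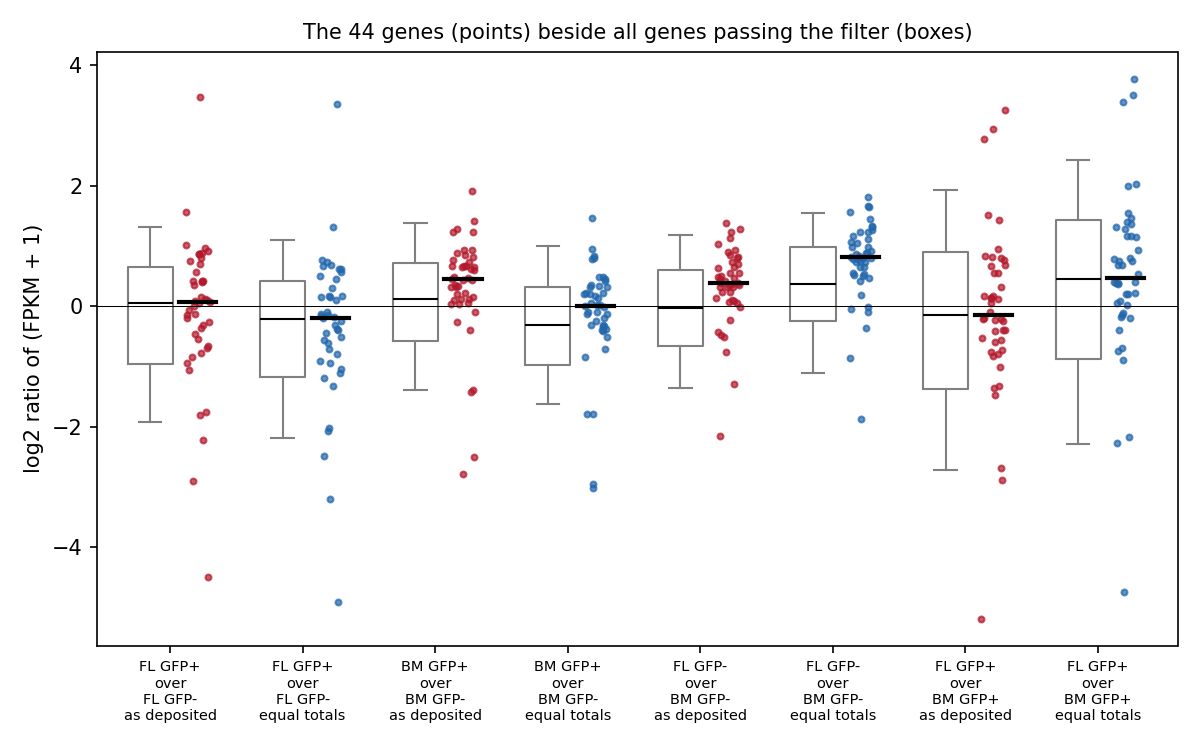
Log2 ratio of (FPKM + 1) for the 44 genes (points, with a thick bar at the median) beside all genes with at least 1 FPKM in either sample (boxes from the lower to the upper quartile, whiskers from the 10th to the 90th percentile), for 4 comparisons as deposited (red) and with equal FPKM totals (blue). The median of the mitotic genes lies above that of all genes in BM GFP+ over BM GFP- (0.44 against 0.12) and in FL GFP- over BM GFP- (0.38 against -0.04) and close to it in the other comparisons.

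Other genes of mitosis, a list of 117 of which 116 were measured, gave a partly similar picture. In the BM, 63 of 116 (54.3%) were higher in GFP+ cells with a median log2 ratio of 0.17, near the background of 55.1% and 0.12. In the FL the fractions split 57 to 59, with 16 past 2-fold higher and 18 lower in GFP+ cells (13.8% and 15.5%, all genes 17.9% and 26.8%). Between GFP- cells of the tissues, 86 of 116 (74.1%) were higher in the FL (all genes 48.6%), with a median of 0.39. By group, 15 of 16 genes of cohesin, separase and shugoshins were on that side, 25 of 27 other spindle and cytokinesis genes, 22 of 30 other centromere and kinetochore genes and 3 of 3 other condensin subunits. The remaining groups had 10 of 15 APC/C genes, 11 of 21 genes of G2/M control and 0 of 4 other checkpoint genes on it. Limma called none of the 116 (0) for GFP or for tissue.

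Of this list the genes with the highest mean FPKM were Cks1b, a small Cdk-binding protein, Anapc5, an APC/C subunit, and Cdc26, another subunit. Cks1b had an FPKM of 253 (GFP+) and 190.1 (GFP-) in the liver against 238 (GFP+) and 248 (GFP-) in the marrow. Anapc5 had 304 (GFP+) and 262 (GFP-) in the liver against 152 (GFP+) and 209 (GFP-) in the marrow. Cdc26 had 136 (GFP+) and 107 (GFP-) in the liver against 166 (GFP+) and 148 (GFP-) in the marrow. None of these differed by 2-fold between fractions. Kif18a, a kinesin that damps chromosome oscillations, and Depdc1a were past 2-fold higher in GFP+ cells of both tissues. Kif18a had 34.4 (GFP+) and 9.47 (GFP-) in the liver against 22.3 (GFP+) and 8.89 (GFP-) in the marrow. Depdc1a had 11.8 (GFP+) and 4.77 (GFP-) in the liver against 8.70 (GFP+) and 3.98 (GFP-) in the marrow. Iqgap3 was lower in both, with 0.207 (GFP+) and 8.20 (GFP-) in the liver against 1.42 (GFP+) and 3.69 (GFP-) in the marrow.

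Among the regulators of late cell-cycle transcription, named here after their values were seen, Foxm1 and Mybl2 were highest in FL GFP+ cells. The MuvB subunits Lin37, Lin52 and Lin54 were lowest there, whereas the subunits Lin9 and Rbbp4 were lowest in FL GFP- cells. Lin9 had an FPKM of 9.49 (GFP+) and 7.78 (GFP-) in the liver against 8.14 (GFP+) and 9.94 (GFP-) in the marrow. Rbbp4 had 65.6 (GFP+) and 59.0 (GFP-) in the liver against 70.6 (GFP+) and 81.7 (GFP-) in the marrow. Foxm1 had an FPKM of 23.1 (GFP+) and 4.56 (GFP-) in the liver against 5.17 (GFP+) and 2.79 (GFP-) in the marrow. Mybl2 (B-Myb), which joins MuvB, had 19.01 (GFP+) and 4.66 (GFP-) in the liver against 8.38 (GFP+) and 10.2 (GFP-) in the marrow. Lin54, a DNA-binding subunit of MuvB, had 0.873 (GFP+) and 6.82 (GFP-) in the liver against 3.30 (GFP+) and 2.42 (GFP-) in the marrow.

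The genes of DNA replication, 26 in number and active in the preceding S phase, were described in the same way. In the BM 10 of 26 were higher in GFP+ cells with a median log2 ratio of -0.21, against 55.1% of all genes and 37 of the 44 mitotic genes. With equal totals 3 of 26 were, against 36.3% of all genes and 22 of the 44. Between GFP- cells of the tissues 13 of 26 were higher in the FL (all genes 48.6%), with a median of 0.02, and 20 of 26 were with equal totals (all genes 66.1%). The difference between the lists was not tested. A list of 12 genes, mostly brakes of the cycle, held Cdk inhibitors and pocket proteins together with E2f4 and Ccng2. Its median FPKM was low, at 6.15 to 9.89. Cdkn1c (p57), known for its role in HSC quiescence, had 16.1 (GFP+) and 14.2 (GFP-) in the liver against 7.14 (GFP+) and 6.17 (GFP-) in the marrow. Other Cdk inhibitors of the list, Cdkn1a, Cdkn1b and Cdkn2c, were lower in both FL samples than in both BM samples. Cdkn1a had 0.230 (GFP+) and 2.06 (GFP-) in the liver against 3.26 (GFP+) and 8.24 (GFP-) in the marrow. For Cdkn1b the values were 0.122 (GFP+) and 5.13 (GFP-) in the liver against 21.9 (GFP+) and 9.20 (GFP-) in the marrow. Cdkn2d (p19) had 35.5 (GFP+) and 65.3 (GFP-) in the liver against 248 (GFP+) and 97.5 (GFP-) in the marrow, the highest level of that list in every sample.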

How the data were processed

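RNA of 4 sorted LSK-SLAM samples, 1 per condition, was sequenced by the authors on a HiSeq2000 after SMARTer amplification. The authors mapped reads with Bowtie and TopHat and computed the deposited FPKM values with Cufflinks 2.2.1 and Cuffquant, with bias and multi-read correction, and Cuffnorm applied its geometric library-size scaling. The paper's methods name NCBI37/mm9, whereas the submitters' processing notes name mm10, so no gene coordinates from the files' build are given. The paper states the number of uniquely mapped reads of each sample. Read counts per gene are not in the files used here, so counting error was not estimated and no interval is given.

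All 44 listed symbols were rows of each file. The 44 genes and all other lists were chosen with earlier results of these data known. Ratios are of FPKM as deposited for the 2-fold rule (more than 2 times, at least 1 FPKM in either sample) and of FPKM + 1 on the log2 scale otherwise. Limma 3.58.1 in R 4.3.3 (eBayes with trend, Benjamini-Hochberg adjustment) was fitted to all genes with at least 1 FPKM in at least 2 samples. It and the 2-fold rule were tested on simulated data with known answers. Other steps used Python 3.11.15, numpy 2.4.6, pandas 2.3.3 and matplotlib 3.10.9. All 44 genes are named. The rule gives values in all samples for those with the highest and lowest mean FPKM in each role, those with the largest and smallest GFP ratio, and any listed at 0, and values of other members were added to describe their complexes and groups. From the other mitotic genes they are the 3 with the highest mean FPKM and those past 2-fold in 1 direction in both tissues. Alternatives covered scaling, threshold, filter, pseudocount and the limma settings. Promoter windows are RefSeq GRCm38.p6 sequences matched by symbol. No promoter was matched for Ccna2, Cdc25c, Aurkb, Incenp, Spc24, Tpx2, Kif20a and Smc4. The symbol Haspin, in the list of other mitotic genes, was not a row and was dropped.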

Additional observations from a re-analysis of the deposited data

Results flagged for a closer look

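Among the 44 genes, Ccnf, Ttk and Plk1 were past 2-fold between GFP+ and GFP- cells in opposite directions in the FL and the BM. This difference was not tested because each condition has 1 sample. Ccnf and Ttk, higher in FL GFP+ and lower in BM GFP+ cells, were 4.55% of the list, against 3.75% of all genes. Plk1, the reverse, was 2.27% of the list, against 5.79% of all genes. The log2(FPKM + 1) ratio of GFP+ over GFP- cells was 1.56 (FL) and -2.50 (BM) for Ccnf, 1.01 (FL) and -1.43 (BM) for Ttk, and -2.21 (FL) and 1.41 (BM) for Plk1.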

How the results depend on the processing

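No paired analysis was possible because each condition has 1 sample and the labels carry no replicate numbers. Of 86 counts of the 44 genes recomputed under alternatives, 61 stayed within 1.5 times of the reported count. With equal FPKM totals, the genes past 2-fold higher in FL GFP+ than FL GFP- cells went from 4 to 2 (all genes 13.0%) and those higher in BM GFP+ than BM GFP- from 5 to 1 (13.1%). Those higher in FL GFP- than BM GFP- went from 6 to 14 (29.9%) and lower from 2 to 1 (13.1%), and those higher in FL GFP+ than BM GFP+ from 6 to 14 (38.1%) and lower from 7 to 3 (25.1%). Equal upper quartiles gave 2 in place of 4 (all genes 13.4%) for the higher side in the FL fractions and 10 in place of 6 (23.1%) in the GFP- cells of the tissues. At 1.5-fold the counts higher and lower were 11 and 11 for the FL fractions (all genes 29.1% and 32.5%), 14 higher for the GFP- cells of the tissues (28.6%), and 12 and 12 for the GFP+ cells (32.8% and 40.7%). For the BM fractions 19 of 44 were then higher, a larger share than the 32.4% of all genes, whereas at 2-fold the share of the 44 was the smaller. At 4-fold they were 1 higher in the FL (all genes 6.98%), 1 higher and 2 lower in the BM (8.12% and 11.8%), 0 higher and 1 lower for the GFP- cells (7.79% and 10.3%), and 3 and 3 for the GFP+ cells (14.1% and 23.8%). With BM GFP- in place of BM GFP+ cells, 11 genes were higher in FL GFP+ cells (all genes 22.4%). At an FPKM of at least 20, the counts fell to 2 lower in BM GFP+ cells (9.36%) and to 3 higher and 1 lower for the GFP- cells of the tissues (8.27% and 15.5%). The last 2 alternatives were chosen after seeing the data. Limma called 0 of the 44 genes for GFP and for tissue in each of its 6 alternatives. Over all genes these called at most 0.128% for GFP and 2.44% for tissue, and 0% for either with eBayes without trend. At such low shares a count of 0 does not set the list apart from all genes. Leaving out any sample would leave that fit 0 residual degrees of freedom, so no such test was run. What caused these changes was not tested. With 1 sample per condition, biological error cannot be estimated, and without read counts per gene counting error was not estimated.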
